A study of Mus musculus with 8 samples.

Results

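The 10 genes described here serve the response of a cell to osmotic stress and to a change in its volume. They were chosen by symbol from the rows of the deposited expression table, and all 10 were found among its 23597 genes. They are Nfat5, the osmolyte genes Slc5a3, Slc6a6, Slc38a2 and Akr1b3, the channel gene Lrrc8a, the cotransporter gene Slc12a2 and the kinase genes Wnk1, Oxsr1 and Stk39. Their levels in this experiment were not used to choose them, but earlier results of the same data were known when the group was put together.

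RNA came from mouse corneas collected at day 14 of a scopolamine course. Scopolamine blocks muscarinic receptors, lowers tear secretion and so serves as a dry eye model, and mice of both groups received it. The 4 ICI samples are from mice that were given the β2-adrenergic antagonist ICI 118551 as well, and the 4 Scop samples are from mice given scopolamine alone. Each sample was a pool of 4 corneas. The sources used here do not state strain, age or which mice went into a pool, so a p-value reflects the spread among these 8 samples and no more. Corneas without dry eye are not part of the comparison, which sets ICI against Scop alone.

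Loss of tear water raises the osmolarity at the ocular surface, and hyperosmotic medium draws water out of epithelial cells. NFAT5, also called TonEBP, is the transcription factor of the slower answer: in mammalian cells it binds tonicity-responsive enhancers and raises genes that load the cell with compatible osmolytes such as inositol, taurine and sorbitol. The fast answer runs through WNK kinases, which sense chloride and crowding, phosphorylate the kinases OSR1 and SPAK, and so switch on sodium, potassium and chloride uptake and switch off potassium and chloride export. The opposite task, loss of solutes from a swollen cell, is carried by the LRRC8 volume-regulated anion channel.

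The libraries held between 34354346 and 39885822 fragments, as whole numbers behind the FPKM values, a level scaled to gene length and library size. Of the epithelial markers Krt12, Krt5, Krt14, Aldh3a1, Pax6 and Tkt, 6 of 6 were present, with a summed level of 34473 to 36670 FPKM in ICI and 34441 to 39265 FPKM in Scop. Scop replicate 3 stood apart by a low stroma: the 8 keratocyte markers, all present, summed to between 1686 and 2269 FPKM in ICI and to 1990.0, 1675, 657 and 1841 FPKM in Scop replicates 1 to 4. The ribosomal locus Gm26917 separated the libraries otherwise, with 3666 to 3836 FPKM in ICI, and 689, 912, 1120 and 4936 FPKM in Scop replicates 1 to 4. The conjunctival and goblet list (Krt13, Krt4, Krt19 and Agr2 present, the goblet cell factor gene Spdef at most 0.0508 FPKM) summed to between 1195 and 1262 FPKM in ICI, and to 1117, 1288, 1864 and 1237 FPKM in Scop replicates 1 to 4, so Scop replicate 3 stood apart there too. The corneal endothelium list, with 3 of 4 genes averaging 0.5 FPKM or more, summed to 143, 56.0, 58.5 and 56.8 FPKM in ICI, and to 92.4, 69.2, 37.3 and 53.9 FPKM in Scop. The skeletal muscle list summed to at most 0.156 FPKM in any library. Since these are bulk samples, fewer cells of a type and less RNA per cell cannot be told apart.

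The members spanned a wide range of levels, and their order was much the same in every library. On the FPKM scale, which is per length and so allows genes to be compared, Akr1b3 was the highest with a mean of 178 FPKM over the 8 libraries, followed by Slc6a6 (103), Slc38a2 (94.1), Slc12a2 (76.9), Wnk1 (21.8), Oxsr1 (9.69), Nfat5 (5.82), Lrrc8a (5.33), Slc5a3 (1.42) and Stk39 (1.13). Among the 12100 genes tested, which averaged 0.5 FPKM or more, the first 4 lay at percentiles 94.0 to 97.5, while Slc5a3 and Stk39 lay at percentiles 14.2 and 10.7. Of the 9 steps in that order, 6 held in 8 of 8 libraries. Slc6a6 was above Slc38a2 in 4 of 8 libraries, Nfat5 above Lrrc8a in 7 of 8 and Slc5a3 above Stk39 in 6 of 8, so the libraries of these neighbours overlapped. The place of Lrrc8a is uncertain, since it shares 2853 exon bases with another gene.

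**Figure D1:**
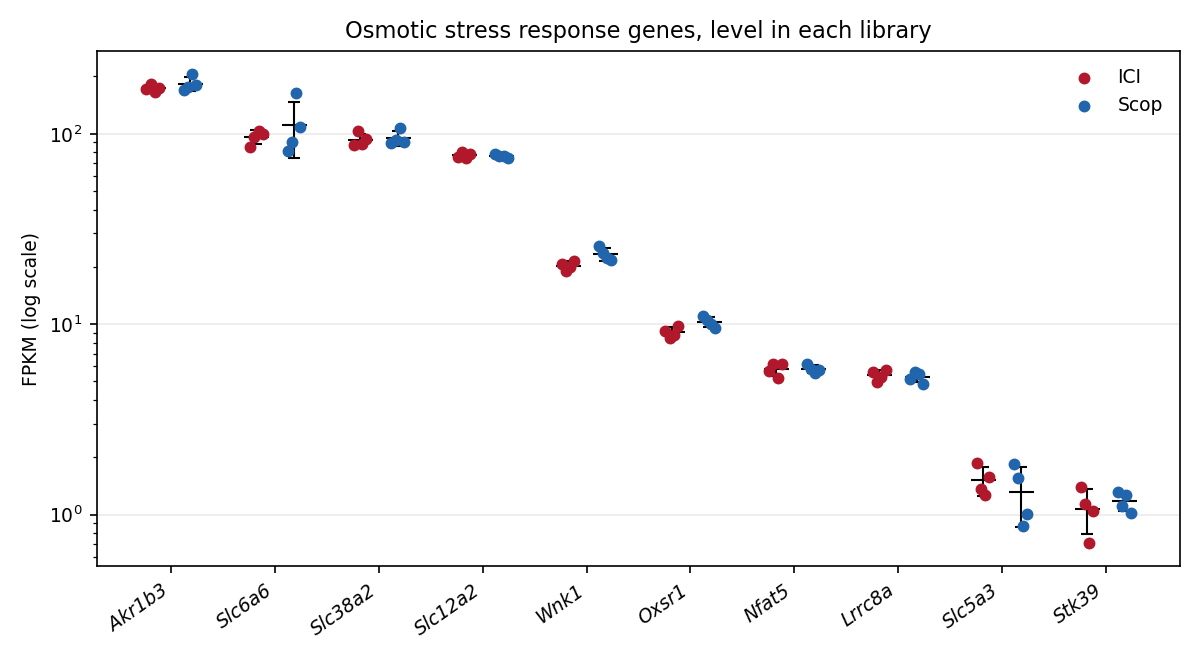
FPKM of the 10 osmotic stress response genes on a log axis, from the highest to the lowest mean level. Each point is a library (ICI left, Scop right, 4 each), and bars give the mean and SD. Wnk1 is the gene whose groups do not touch, and the widest spread among the abundant genes is that of Slc6a6 in Scop, from 81.5 to 163 FPKM.

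The comparison of ICI with Scop asks whether transcripts of the osmotic response differ in the dry eye cornea when the β2-adrenergic receptor is blocked. None of the 10 members passed the test, limma on log2(FPKM + 1) with Benjamini-Hochberg adjustment over all 12100 genes, and the smallest adjusted p was 0.307 (Wnk1). That test called 0% of all genes in either direction. At an unadjusted p under 0.05, 2 members, Wnk1 and Oxsr1, had lower values in ICI and 0 had higher ones, where 7.46% and 4.56% of all tested genes did so. Limma-voom on the recovered fragments also gave 0 members after adjustment and the same 2 without it. The members' median log2 fold change was -0.05, beside -0.02 for all tested genes. Their values were negative in 7 and positive in 3, where 55.4% of all tested genes had a negative value. The groups did not overlap for 1 member, Wnk1, where 4.36% of all tested genes lay wholly lower in ICI and 6.98% were apart in either direction.

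**Figure D2:**
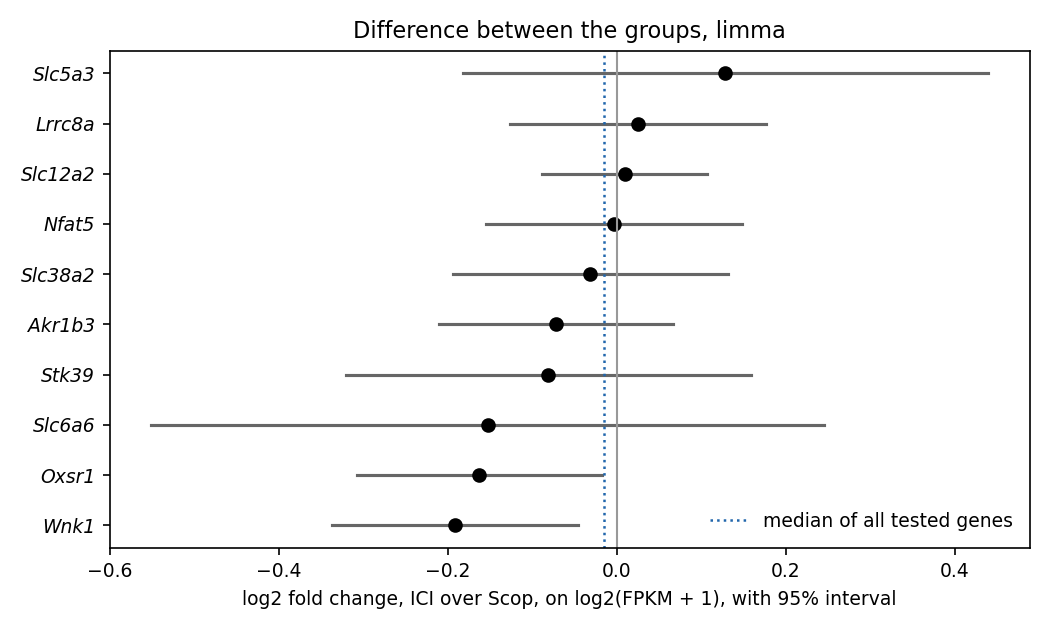
Log2 fold change of each member, ICI over Scop, on the log2(FPKM + 1) scale, with limma's 95% interval. The intervals of Wnk1 and Oxsr1 lie below 0, those of the other 8 members span it, and the dotted line is the median of all tested genes (-0.02).

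Nfat5 (chromosome 8, 107293435 to 107379517 of the mm10 build, plus strand), the transcription factor at the head of the slower response, was at 5.66, 6.21, 5.24 and 6.15 FPKM in ICI replicates 1 to 4, and at 6.19, 5.80, 5.56 and 5.73 FPKM in Scop replicates 1 to 4. The groups overlapped throughout, and the highest and the lowest library were both ICI. The log2 fold change was -0.0032 (SE 0.07, limma adjusted p = 0.990), with an interval from 0.898-fold to 1.11-fold on the log2(FPKM + 1) scale. Each value rested on 4014 to 5192 fragments, a counting error of at most 1.58%, while the coefficient of variation between libraries was 7.81% in ICI and 4.601% in Scop. Gene-level values do not show the activity of the protein, which is regulated by its phosphorylation and entry into the nucleus.

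Among all tested genes, those with the profile most like Nfat5 over the 8 libraries were Zfp445 (Pearson r = 0.955 on log2(FPKM + 1)), Zscan26 (0.945), Pnpla8 (0.940), Ireb2 (0.937) and Sclt1 (0.933). They are given as a description with no test, picked as the highest of all tested genes, and all points share the same 8 libraries. Zfp445 and Zscan26 encode zinc finger proteins, Pnpla8 a phospholipase and Ireb2 an iron-regulatory RNA-binding protein. Like Nfat5, each of the 5 was lowest in ICI replicate 3.

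Within its family, Nfat5 was a middle member by level. Its share of the summed FPKM of Nfat5 and the 4 calcineurin-dependent genes Nfatc1 to Nfatc4 was 22.7% ± 1.33 in ICI and 21.7% ± 0.607 in Scop (SD, n = 4 each), a difference that did not pass an exact permutation test (two-sided, p = 0.257, adjusted p = 0.786 over 5 ratios). Nfatc2 averaged 7.61 ± 0.578 FPKM in ICI and 8.47 ± 0.680 FPKM in Scop, and Nfatc3 averaged 7.59 ± 0.0916 and 8.24 ± 0.527 FPKM in ICI and Scop. Of the 4 other family genes, 0 had an unadjusted p under 0.05 by limma, and 1 without ICI replicate 4 and 2 without Scop replicate 2 did.

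The osmolyte genes came in a low and a high tier. Akr1b3 (chromosome 6, 34303930 to 34317489, minus strand) encodes aldose reductase, which turns glucose into sorbitol. It was at 173, 182, 166 and 173 FPKM in ICI, and at 170.2, 175, 206 and 181 FPKM in Scop. The libraries overlapped, with Scop replicate 3 highest, and the log2 fold change was -0.07 (SE 0.06, limma adjusted p = 0.672), or -0.015 without that library.

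Slc6a6 (chromosome 6, 91684048 to 91759063, plus strand) encodes TauT, the sodium- and chloride-dependent importer of taurine. It was at 84.8, 96.4, 103 and 100.2 FPKM in ICI, and at 81.5, 90.6, 163 and 108 FPKM in Scop. Scop held the highest and the lowest libraries, and Scop replicate 3 alone was above 108 FPKM. The log2 fold change was -0.15 (SE 0.18, limma adjusted p = 0.760), and without Scop replicate 3 it was 0.05 (SE 0.10, adjusted p = 0.867). In that library the sum of the 8 keratocyte markers was lowest, and the conjunctival and goblet sum was highest, as were Krt13 (1468 FPKM) and Krt4 (257 FPKM), keratins of conjunctival epithelium, and Krt16, a keratin of stressed squamous epithelium. The corneal epithelium sum was highest there too (39265 FPKM). Krt16 was at 5.86, 4.93, 4.37 and 14.4 FPKM in ICI and 4.73, 14.4, 77.1 and 46.7 FPKM in Scop. The part of the corneal epithelial markers, the conjunctival keratins and Krt16 in the values of Slc6a6 was not tested. Nor was their part in the highest values of Akr1b3 and Slc38a2 in the same library. With the mean of Kera, Lum and Dcn as a covariate, the log2 fold change of Slc6a6 was 0.11 (SE 0.09, adjusted p = 0.619).

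Slc38a2 (chromosome 15, 96687392 to 96699728, minus strand) encodes SNAT2, a system A importer of neutral amino acids that hyperosmotic medium induces in cultured cells. It was at 87.8, 103, 87.9 and 93.4 FPKM in ICI, and at 89.7, 93.0, 108 and 90.3 FPKM in Scop. A single library was high in each group, ICI replicate 2 and Scop replicate 3, and the groups overlapped. The log2 fold change was -0.03 (SE 0.07, limma adjusted p = 0.888), with an interval from 0.874-fold to 1.10-fold.

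Slc5a3 (chromosome 16, 92058322 to 92087473, plus strand) encodes SMIT1, the sodium-coupled importer of myo-inositol. It was at 1.86, 1.36, 1.26 and 1.57 FPKM in ICI, and at 1.85, 1.55, 0.874 and 1.01 FPKM in Scop. Scop replicates 3 and 4 lay below every other library, while Scop replicate 1 was close to the highest ICI library. The log2 fold change was 0.13 (SE 0.14, limma adjusted p = 0.742), with an interval from 0.881-fold to 1.36-fold, and was 0.03 without Scop replicate 3. With the ribosomal loci as a covariate it was 0.35 (SE 0.18, limma adjusted p = 0.674), and with the stromal score 0.0020 (adjusted p = 0.996). By limma-voom on fragments it was 0.22 (SE 0.22). The gene rested on 542 to 797 fragments in ICI and 329 to 811 in Scop. The corneal endothelium sum was highest in ICI replicate 1 (143 FPKM) and Scop replicate 1 (92.4 FPKM) and lowest in Scop replicates 3 and 4 (37.3 and 53.9 FPKM), the same libraries that were highest and lowest for Slc5a3. In ICI replicates 2 to 4 the sum was close to that of Scop replicate 4 (56.0, 58.5 and 56.8 FPKM). Slc5a3 was higher in these ICI libraries (1.36, 1.26 and 1.57 FPKM) than in Scop replicate 4 (1.01 FPKM). The part of this sum in the values of Slc5a3 was not tested. The gene shares 159 exon bases with Mrps6 on the same strand in the GENCODE annotation, and the sources used here do not state how reads of shared bases were assigned. Mrps6, a mitochondrial ribosomal protein gene, was at 18.04, 12.9, 13.6 and 17.9 FPKM in ICI and 17.0, 18.2, 17.1 and 18.8 FPKM in Scop, a pattern without the low values of Slc5a3 in Scop replicates 3 and 4.

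The 4 osmolyte genes thus did not all vary together between libraries. In Scop replicate 3, Slc6a6, Akr1b3 and Slc38a2 stood 0.69, 0.21 and 0.20 above their own mean log2 FPKM over the 8 libraries and were at their highest, whereas Slc5a3 stood at -0.65 and was at its lowest. ICI replicate 3 held the lowest values of 4 members (Nfat5, Akr1b3, Slc12a2 and Stk39).

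**Figure D3:**
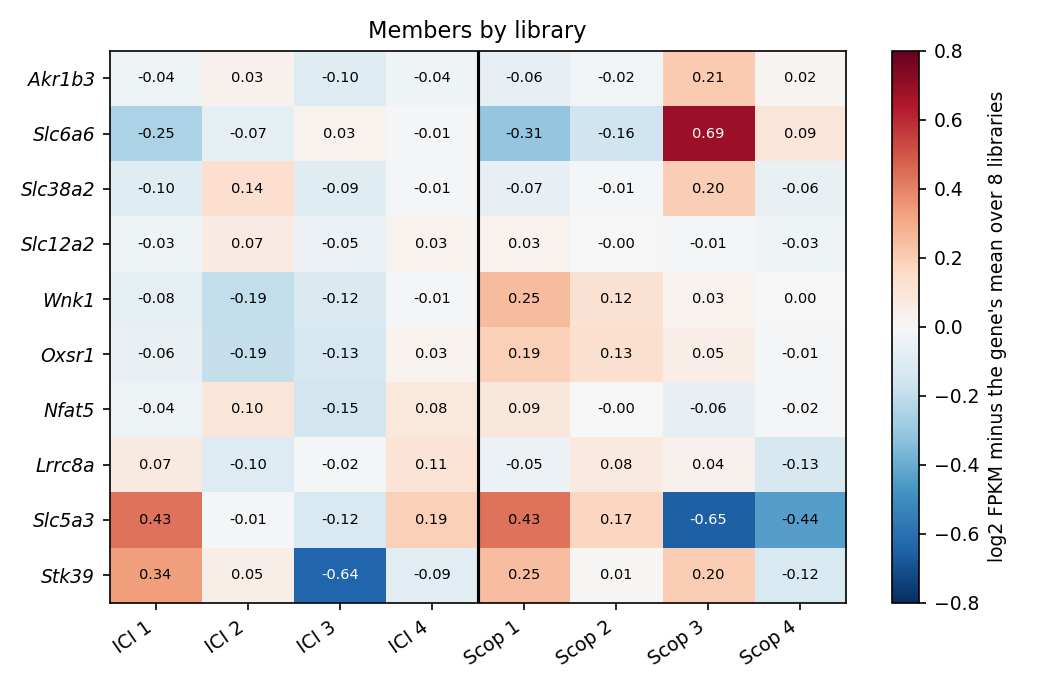
Log2 FPKM of each member minus its mean over the 8 libraries, by library (ICI left of the line, Scop right). Slc6a6 (0.69) and Slc5a3 (-0.65) stand in opposite directions in Scop replicate 3, Stk39 is at -0.64 in ICI replicate 3, and Slc12a2 stays within 0.07 of its mean.

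Lrrc8a (chromosome 2, 30237769 to 30263790, plus strand) encodes the obligatory subunit of the volume-regulated anion channel. It was at 5.60, 4.95, 5.25 and 5.73 FPKM in ICI, and at 5.15, 5.61, 5.46 and 4.88 FPKM in Scop, with full overlap. The log2 fold change was 0.02 (SE 0.07, limma adjusted p = 0.906), with an interval from 0.916-fold to 1.13-fold. The gene shares 2853 exon bases with the predicted gene Gm28035 on the same strand. Its level and its share of the subunits are therefore uncertain by what the counting did with these bases. Of the partner subunits that set what the channel conducts, Lrrc8b was the most abundant at 16.9 ± 1.77 FPKM in ICI and 17.9 ± 0.659 FPKM in Scop, and Lrrc8c the least at 1.13 ± 0.222 and 1.13 ± 0.145 FPKM. Lrrc8a made up 18.03% ± 2.04 of the summed FPKM of the 5 subunits in ICI and 16.9% ± 0.873 in Scop (SD, n = 4 each, exact permutation test, two-sided, p = 0.314, adjusted p = 0.786 over 5 ratios).

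Slc12a2 encodes NKCC1, the cotransporter that loads cells with sodium, potassium and chloride and that OSR1 and SPAK activate. It was at 75.1, 80.6, 74.4 and 78.5 FPKM in ICI, and at 78.4, 76.8, 76.1 and 75.0 FPKM in Scop. It was the steadiest member, with 1.08-fold between its highest and lowest library. Its log2 fold change was 0.0093 (SE 0.04, limma adjusted p = 0.950), with an interval from 0.941-fold to 1.08-fold on the log2(FPKM + 1) scale. Of the potassium chloride exporter genes, whose products the same kinases inhibit, Slc12a4 averaged 7.89 ± 0.375 FPKM in ICI and 8.29 ± 0.143 FPKM in Scop. Slc12a7 averaged 1.70 ± 0.241 and 1.81 ± 0.129 FPKM in ICI and Scop. The kidney cotransporter gene Slc12a1 was listed at 0 in every library.

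Wnk1 (chromosome 6, 119923969 to 120038695, minus strand) encodes the most widely expressed WNK kinase. It was at 20.6, 19.0, 20.04 and 21.6 FPKM in ICI, and at 25.9, 23.7, 22.2 and 21.8 FPKM in Scop. All 4 ICI libraries lay below all 4 Scop libraries, though ICI replicate 4 and Scop replicate 4 were close. The mean was 20.3 ± 1.08 FPKM in ICI and 23.4 ± 1.86 FPKM in Scop (SD, n = 4 each), and the log2 fold change was -0.19 (SE 0.07, limma unadjusted p = 0.0152, adjusted p = 0.307). Its p ranked 595 of 12100. The interval ran from 0.791-fold to 0.969-fold. With each library left out in turn the log2 fold change lay between -0.22 and -0.14 and the unadjusted p between 0.0109 and 0.0449. Counting error was at most 1.04%, on 9230 or more fragments in every library.

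Oxsr1 (chromosome 9, 119238432 to 119322684, minus strand) encodes OSR1, the kinase that WNK1 phosphorylates. It was at 9.26, 8.45, 8.82 and 9.83 FPKM in ICI, and at 11.01, 10.6, 10.02 and 9.60 FPKM in Scop. The groups overlapped in a single pair, ICI replicate 4 above Scop replicate 4. The mean was 9.09 ± 0.595 FPKM in ICI and 10.3 ± 0.614 FPKM in Scop, and the log2 fold change was -0.16 (SE 0.07, limma unadjusted p = 0.0317, adjusted p = 0.365). The unadjusted p exceeded 0.05 without ICI replicate 2 (0.0857), without ICI replicate 3 (0.0731), without Scop replicate 1 (0.0879) and without Scop replicate 2 (0.0735). Within Scop, Wnk1 and Oxsr1 ranked the replicates alike, from replicate 1 as the highest to replicate 4 as the lowest, and within ICI both were highest in replicate 4 and lowest in replicate 2.

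Within Scop, the ribosomal locus Gm26917 ran in the opposite direction to these 2 genes. Gm26917 was low in Scop replicates 1 to 3 (689, 912 and 1120 FPKM), where Wnk1 and Oxsr1 were high, and was at 4936 FPKM in Scop replicate 4, which had the lowest Wnk1 and Oxsr1 of its group. Within ICI, Lars2 was highest in replicate 4 (144 FPKM) and lowest in replicate 2 (110 FPKM), as Wnk1 and Oxsr1 were. AY036118 was also highest and lowest in these ICI libraries (44.2 and 22.1 FPKM). A covariate was made of the mean of Lars2, AY036118 and Gm26917. It is called the ribosomal loci here, although Lars2 is a protein-coding gene. With this covariate, the log2 fold change of Wnk1 was -0.10 (SE 0.09, limma unadjusted p = 0.281) and that of Oxsr1 was -0.09 (SE 0.09, limma unadjusted p = 0.350). With the keratocyte score as a covariate they were -0.22 and -0.17, with unadjusted p = 0.0139 and 0.0444 by limma. The ribosomal loci separate ICI from 3 of the 4 Scop libraries, so over those libraries the treatment and whatever sets these loci cannot be told apart.

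**Figure D4:**
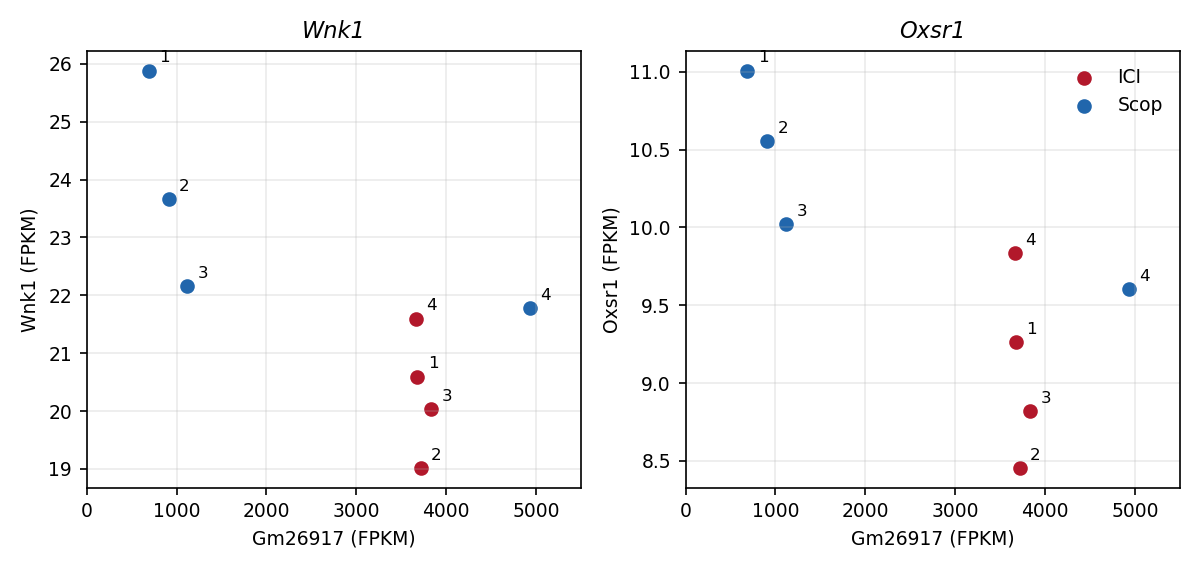
Wnk1 and Oxsr1 (FPKM) against the ribosomal locus Gm26917 (FPKM) in each library, numbered by replicate; the vertical axes do not start at 0. Scop replicate 4 (4936 FPKM) lies beyond the ICI libraries (3666 to 3836 FPKM) on the horizontal axis. It is the lowest Scop library for both genes (21.8 and 9.60 FPKM). Its Wnk1 is still above every ICI library (at most 21.6 FPKM), and its Oxsr1 is below ICI replicate 4 (9.83 FPKM).

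Stk39 (chromosome 2, 68210445 to 68472108, minus strand) encodes SPAK, the close relative of OSR1. It was at 1.40, 1.14, 0.710 and 1.04 FPKM in ICI, and at 1.31, 1.11, 1.27 and 1.02 FPKM in Scop. ICI replicate 3 was low and the groups overlapped (log2 fold change -0.08, SE 0.11, limma adjusted p = 0.791, and -0.17 by limma-voom on fragments). The low library rested on 135 fragments and the highest on 265. The counting error of 6.14 to 8.61% compares with a coefficient of variation of 26.5% in ICI and 11.8% in Scop. Stk39 was thus the scarcer of the 2 effector kinases: the log2 ratio of Stk39 to Oxsr1 was -3.12 ± 0.401 in ICI and -3.13 ± 0.134 in Scop (SD, n = 4 each, exact permutation test, two-sided, p = 0.971, adjusted p = 1 over 5 ratios).

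Of the other WNK kinases, Wnk4 averaged 13.2 ± 1.11 FPKM in ICI and 14.9 ± 0.387 FPKM in Scop (log2 fold change -0.17, SE 0.06, limma unadjusted p = 0.0233, adjusted p = 0.340), with ICI replicate 4 inside the Scop range. Wnk2 averaged 4.96 ± 0.142 and 5.63 ± 0.830 FPKM in ICI and Scop, and Wnk3 did not exceed 0.0448 FPKM in any library. The share of Wnk1 in the family's summed FPKM was 52.8% ± 1.48 in ICI and 53.1% ± 2.12 in Scop (SD, n = 4 each, exact permutation test, two-sided, p = 0.857, adjusted p = 1 over 5 ratios). The groups overlapped, and the difference was -0.325 percentage points.

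**Figure D5:**
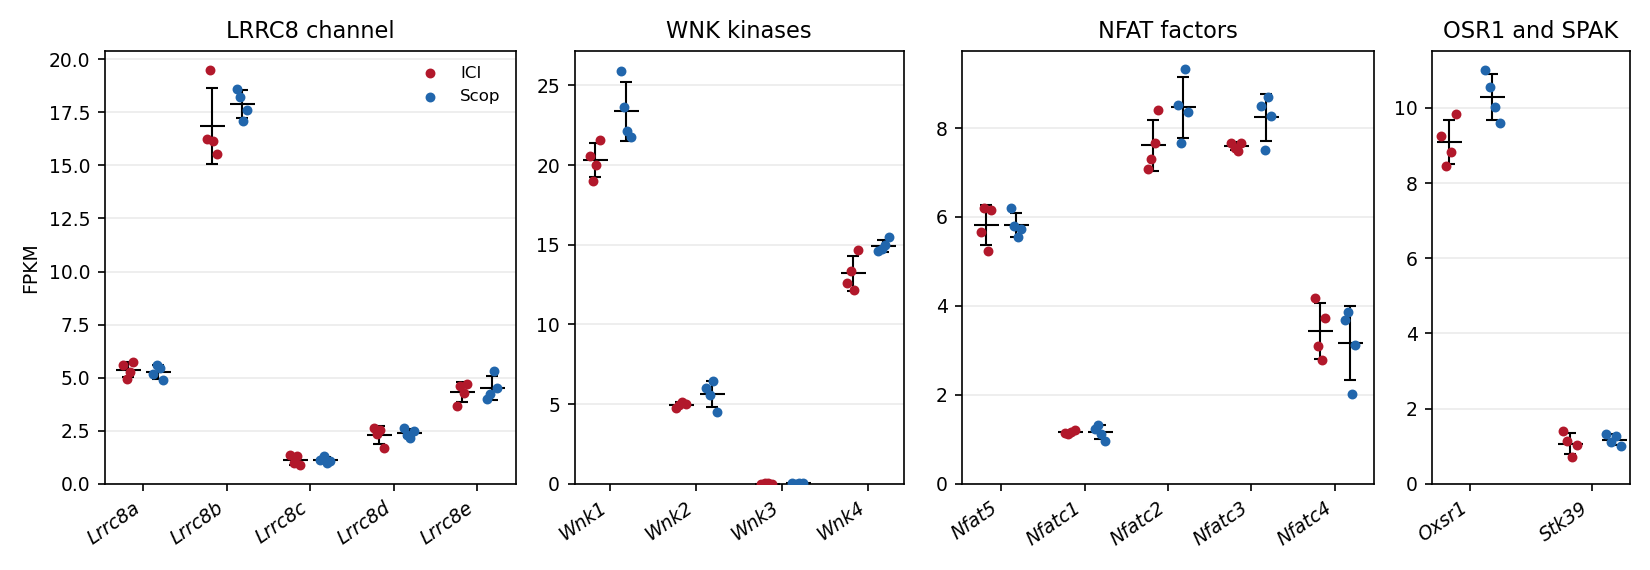
FPKM of the LRRC8 channel subunits, the WNK kinases, the NFAT factors and the effector kinases; points are libraries (ICI left, Scop right, 4 each) and bars the mean and SD. Lrrc8b exceeds Lrrc8a as counted, but Lrrc8a shares 2853 exon bases with Gm28035 and its level is uncertain. Wnk1 and Wnk4 carry most of the WNK transcripts, and Oxsr1 far exceeds Stk39 (means of 9.69 and 1.13 FPKM over the 8 libraries).

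The promoters of Wnk1 and Oxsr1 are shown because these 2 members had the lowest p, and that of Stk39 because it alone of the 7 members with an entry held the core of the tonicity-responsive enhancer that NFAT5 binds. The sequences are the 250 bases before the start of each gene's entry in RefSeq's GRCm38.p6 annotation, which is the mm10 build. They are given 5′ to 3′ on the strand of the gene. The start of the entry lies inside the gene span given above for each of these genes. The windows therefore overlap those spans, and that of Oxsr1 lies wholly within its span. Both strands were searched for TGGAAA, the 5′ part of that enhancer, and for GGAAA, the core shared by NFAT factors, which every TGGAAA contains. Capitals mark a match.
Wnk1, chr6:120038656-120038905, minus strand: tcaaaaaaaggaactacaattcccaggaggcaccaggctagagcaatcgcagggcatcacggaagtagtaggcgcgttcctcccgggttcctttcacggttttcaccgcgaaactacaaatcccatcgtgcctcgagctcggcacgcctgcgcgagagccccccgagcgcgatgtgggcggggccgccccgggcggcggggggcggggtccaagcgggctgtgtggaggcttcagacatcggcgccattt
Oxsr1, chr9:119322428-119322677, minus strand: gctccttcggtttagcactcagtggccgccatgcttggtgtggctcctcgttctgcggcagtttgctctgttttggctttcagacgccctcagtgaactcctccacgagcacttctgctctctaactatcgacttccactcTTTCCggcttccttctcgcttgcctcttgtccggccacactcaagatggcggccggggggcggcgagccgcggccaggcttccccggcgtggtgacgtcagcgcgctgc
Stk39, chr2:68471982-68472231, minus strand: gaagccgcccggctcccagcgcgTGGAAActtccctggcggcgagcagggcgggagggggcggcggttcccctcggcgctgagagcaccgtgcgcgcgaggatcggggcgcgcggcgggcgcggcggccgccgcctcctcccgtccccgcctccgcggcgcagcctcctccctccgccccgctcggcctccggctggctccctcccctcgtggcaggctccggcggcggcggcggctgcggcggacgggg
The window of Wnk1 held no match, that of Oxsr1 held a GGAAA on the opposite strand, at position -109 from the start, and that of Stk39 held a TGGAAA on the gene's strand, its GGAAA at position -226. Of all 32851 promoters in the table, 18.6% held TGGAAA and 55.6% held GGAAA. Lrrc8a held 1 and Nfat5 held 2 of the shorter core, and Slc38a2 and Slc5a3 held none. A match is a description of letters and not a binding site, and a window without a match says only that these letters are not in it.

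Around the members, 7 lists of genes of the same pathways were examined, 134 genes in all, of which 116 were tested. They were chosen with earlier results of these data known. No gene of any list passed limma's adjusted test, and 13 (11.2%) had an unadjusted p under 0.05, 4 with higher and 9 with lower values in ICI, where 12% of all tested genes had one. That share is near the background.

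In the list of NFAT5 targets and osmolyte handling, 3 of 21 tested genes had an unadjusted p under 0.05, all with lower values in ICI. Over the whole table, 7.46% of tested genes were lower at that threshold. The median log2 fold change of the list was -0.03. Slc7a5, which encodes the large neutral amino acid transporter LAT1, was at 12.3, 8.30, 10.3 and 9.57 FPKM in ICI, and at 16.4, 13.8, 14.7 and 16.2 FPKM in Scop. All ICI libraries lay below all Scop libraries, where 4.36% of all tested genes lay wholly lower in ICI (log2 fold change -0.56, SE 0.10, limma adjusted p = 0.161). The others were Hspa1a, a heat shock protein gene that NFAT5 can induce (44.2 ± 10.6 and 60.2 ± 12.7 FPKM in ICI and Scop, adjusted p = 0.412 by limma), and the inositol phosphatase gene Impa2 (6.38 ± 0.797 and 7.58 ± 0.847 FPKM, adjusted p = 0.402 by limma). Hspa1b, the more abundant paralogue of Hspa1a, averaged 180 ± 14.1 and 192 ± 16.3 FPKM in ICI and Scop (limma unadjusted p = 0.272). The sources used here do not state how reads shared between these paralogues were counted. Slc44a2, a choline transporter gene, averaged 44.6 ± 3.16 and 40.7 ± 1.92 FPKM in ICI and Scop. Cdo1, an enzyme gene of taurine synthesis, was the most abundant of the list at 539 ± 31.5 and 525 ± 17.1 FPKM. Slc6a12, the betaine importer that NFAT5 raises in the kidney, had at most 0.05 FPKM, in Scop replicate 2, and was listed at 0 in the other libraries. The count of lower genes was 1 with ICI replicate 2 or Scop replicate 2 left out, and 1 to 3 under the other settings. The count of higher genes was 2 with ICI replicate 1 or Scop replicate 3 left out, and 1 without ICI replicate 2, without ICI replicate 3, without Scop replicate 1 and without Scop replicate 2.

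In the WNK list, 2 of 17 tested genes had an unadjusted p under 0.05, Wnk4 and Cul3 (median of the list -0.06). Both had lower values in ICI, as 7.46% of all tested genes did at that threshold. Cul3, the ubiquitin ligase scaffold that degrades WNK kinases together with KLHL adaptors, averaged 16.4 ± 1.21 FPKM in ICI and 18.6 ± 0.933 FPKM in Scop (adjusted p = 0.340 by limma). The adaptor gene Klhl3 of the distal nephron did not exceed 0.109 FPKM in any library, while its relative Klhl2 averaged 13.8 ± 1.07 and 14.5 ± 0.892 FPKM in ICI and Scop. Cab39, the scaffold that activates OSR1 and SPAK, averaged 55.9 ± 2.99 and 58.2 ± 2.77 FPKM. Ppp1ca and Ppp1cb, catalytic subunits of the phosphatase that acts on the cotransporters, averaged 231 ± 4.55 and 236 ± 14.2 FPKM, and 92.0 ± 5.97 and 98.6 ± 4.03 FPKM, in ICI and Scop. The count of the list was 0 without ICI replicate 1 and without ICI replicate 3, 1 without Scop replicate 2 and without Scop replicate 4, and 0 to 2 under the other settings.

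Of 25 tested genes that signal to NFAT5, 2 had an unadjusted p under 0.05 (median -0.03). Both had lower values in ICI, as 7.46% of all tested genes did at that threshold. They were the kinase gene Atm (1.91 ± 0.129 and 2.44 ± 0.410 FPKM in ICI and Scop) and the nuclear import receptor gene Kpnb1 (44.8 ± 3.03 and 49.6 ± 2.19 FPKM, adjusted p = 0.365 by limma). The groups of Kpnb1 did not overlap, where 4.36% of all tested genes lay wholly lower in ICI. Mapk14, the stress kinase p38α, averaged 31.8 ± 2.99 and 35.5 ± 2.20 FPKM, and Akap13, an anchoring protein and exchange factor gene, 4.16 ± 0.0758 and 4.66 ± 0.345 FPKM. Ddx5, an RNA helicase gene and the most abundant of the list over all 8 libraries, averaged 229 ± 8.31 and 224 ± 15.1 FPKM in ICI and Scop. The count of lower genes was 5 without Scop replicate 4, 1 without ICI replicate 1 and without ICI replicate 2, and 0 without ICI replicate 4, without Scop replicate 1 and without Scop replicate 2. Under the other settings it was 0 to 3.

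Of 23 tested genes of channels, exchangers and pumps, 1 had an unadjusted p under 0.05, the sodium bicarbonate cotransporter gene Slc4a7 (3.12 ± 0.294 and 3.74 ± 0.447 FPKM in ICI and Scop, adjusted p = 0.403 by limma). It was lower in ICI, as 7.46% of all tested genes were at that threshold. Atp1b3, a sodium pump subunit gene and the most abundant of the list over all 8 libraries, averaged 249 ± 9.72 and 251 ± 18.3 FPKM in ICI and Scop. Clns1a, a gene once proposed for a swelling-activated chloride current, averaged 16.8 ± 0.746 and 18.1 ± 1.73 FPKM, and the anion exchanger gene Slc4a2 11.5 ± 0.354 and 12.4 ± 1.004 FPKM. Trpv4, an osmotically gated cation channel gene, averaged 8.07 ± 0.621 and 7.41 ± 0.784 FPKM without passing. The count of lower genes was 2 without Scop replicate 3, 0 when any of ICI replicates 1 and 4 and Scop replicates 1, 2 and 4 was left out, and 0 to 3 under the other settings.

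Among 15 tested genes of the amino acid response next to Slc38a2, 1 had an unadjusted p under 0.05, the neutral amino acid transporter gene Slc1a4, with higher values in ICI (4.59 ± 0.570 and 3.73 ± 0.575 FPKM in ICI and Scop, adjusted p = 0.402 by limma). At that threshold 4.56% of all tested genes were higher in ICI. Atf4, the transcription factor of that response, averaged 99.0 ± 6.22 and 109 ± 10.01 FPKM, and its targets Ddit3 and Chac1 averaged 3.44 ± 0.387 and 4.004 ± 0.517 FPKM, and 28.5 ± 5.32 and 34.5 ± 5.10 FPKM, in ICI and Scop. The count of higher genes was 0 without ICI replicate 1, without ICI replicate 3 and without Scop replicate 2. The count of lower genes was 2 without Scop replicate 3 and 1 when any of ICI replicates 1 and 3 and Scop replicates 1 and 4 was left out. Under the other settings these counts were 0 to 1 and 0 to 2.

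The aldo-keto reductase and polyol list next to Akr1b3 had 4 of 11 tested genes with an unadjusted p under 0.05, 3 higher and 1 lower in ICI (median 0.04). Of all tested genes, 4.56% were higher and 7.46% lower at that threshold. The list was chosen with earlier results of these data known. Over the alternatives the counts of the list were 2 to 3 higher and 0 to 2 lower, with 2 lower without Scop replicate 2. The 3 higher ones did not overlap between the groups, where 2.63% of all tested genes lay wholly higher in ICI. Akr1c13, a steroid and aldehyde reductase gene, was at 31.3, 29.4, 31.7 and 30.7 FPKM in ICI, and at 26.5, 25.6, 26.3 and 26.7 FPKM in Scop (log2 fold change 0.22, SE 0.05, limma adjusted p = 0.162). Khk, the ketohexokinase that phosphorylates the fructose made through sorbitol, was at 5.90, 6.12, 6.59 and 7.13 FPKM in ICI, and at 5.54, 5.20, 5.08 and 4.92 FPKM in Scop (0.26, SE 0.07, adjusted p = 0.225). Akr1b7, a close paralogue of Akr1b3, averaged 143 ± 8.66 FPKM in ICI and 129.9 ± 2.50 FPKM in Scop (0.13, SE 0.05, limma adjusted p = 0.341). Hk2, a hexokinase gene, averaged 4.23 ± 0.370 and 5.20 ± 0.513 FPKM (-0.24, SE 0.08, limma adjusted p = 0.302). Akr1a1, the aldehyde reductase gene and the most abundant of the list, averaged 255 ± 3.795 and 249 ± 12.3 FPKM in ICI and Scop. Sord, whose product turns sorbitol into fructose, averaged 53.2 ± 5.23 and 47.6 ± 3.36 FPKM in ICI and Scop without passing, beside 174 ± 6.38 and 183 ± 15.7 FPKM of Akr1b3. The sources used here do not state how reads shared between such paralogues were counted, so values of Akr1b3, Akr1b7 and the Akr1c genes are uncertain to that extent.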

How the data were processed

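RNA-seq was made from 8 pools of 4 mouse corneas, 4 ICI and 4 Scop. Tools named in the submitters' processing notes are HISAT2, HTSeq and fastp, with build mm10. The sources used here do not state versions, annotation or strandedness. The authors deposited FPKM values with 1 column per sample and no stated scaling between samples. Columns were matched to samples by title.

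Whole fragments were recovered for 99.8% of genes from ratios of FPKM between libraries (relative tolerance 5e-13, whole within 0.01), and used for depth and limma-voom. Genes were tested with limma 3.58.1 in R 4.3.3 (eBayes with trend) on log2(FPKM + 1), over the 12100 genes averaging 0.5 FPKM or more. Tests were two-sided, p-values were adjusted by Benjamini-Hochberg, and 0.05 was the threshold. That scale understates fold changes of low genes. The fit was tested on simulated fragments that held no shift shared by many genes of a library, so that test does not cover such shifts. Intervals are limma's 95% intervals. Of 5 family ratios, 1 is not reported here, nor are some genes of the lists. The ratios had exact permutation tests over the 70 splits of 4 against 4, whose smallest p is 0.0286.

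The members and lists were chosen with earlier results of these data known. Named genes were all members, per list the 4 with the smallest p and the most abundant, the family genes, and the 5 genes most like Nfat5. Further list genes named (Slc6a12, Hspa1b, Slc12a1, Klhl2, Klhl3, Cab39, Trpv4 and Sord) were chosen after their values were seen. So were Krt16, Mrps6, Kera, Lum, Dcn, Gm26917, AY036118 and Lars2. Promoters are RefSeq's, with 7 of 10 members matched. Alternatives were other pseudocounts (0.1 and 5), filters, scalings, eBayes settings, array weights, a replicate block, limma-voom, and leaving out each library. Covariates for the ribosomal loci and the stroma were added after seeing the data. The lowest chi-square per degree of freedom between any pair of libraries was 13.1, and no pair was merged.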

Additional observations from a re-analysis of the deposited data

How the results depend on the processing

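No member passed the adjusted test under any alternative. Genes called over the whole table numbered 0 and 0 (higher and lower) except with array weights (3 and 4), the stromal covariate (0 and 1) and single libraries left out (0 to 4 higher, 0 to 2 lower). At an unadjusted p under 0.05 genes higher in ICI numbered 862 with no filter and 318 at 5 FPKM, where more or fewer genes were tested, and 407 to 665 with a library left out. Genes lower in ICI numbered 386 with the ribosomal covariate and 617 to 1211 with a library left out. Members at that threshold, 2 lower, became 1 after quantile normalisation, 0 with the ribosomal covariate and 1 to 2 with a library left out. With the replicate number as a block they were 1 (Wnk1), and the block moved no adjusted call. The labels do not say whether a number marks a pair. The correlation of deviations was -0.0093 to 0.287 for same-numbered libraries and -0.280 to 0.141 for the others, which does not settle it. The members' median was 0.015 with the ribosomal and -0.0016 with the stromal covariate, and -0.088 to 0.0010 with a library left out.

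Wnk1, Oxsr1 and Akr1b3 stayed negative and Slc5a3 positive in every alternative that could test them. The 5 FPKM filter left out Slc5a3 and Stk39. Values near 0 turned: Nfat5 to 0.015 with quantile normalisation and to 0.013 with median-ratio scaling, and with the ribosomal covariate Nfat5 to 0.032, Slc38a2 to 0.00088 and Stk39 to 0.029. With the stromal covariate Slc6a6 turned to 0.11 and Slc38a2 to 0.041. With a library left out, values ran from -0.031 to 0.038 (Nfat5), -0.28 to 0.048 (Slc6a6), -0.081 to 0.029 (Slc38a2), -0.0062 to 0.058 (Lrrc8a), -0.012 to 0.026 (Slc12a2) and -0.15 to 0.0077 (Stk39). The difference in the Wnk1 share ran from -1.10 to 0.532 percentage points, in the Lrrc8a share from 0.455 to 2.03, in the Nfat5 share from 0.384 to 1.39 and in the log2 ratio of Stk39 to Oxsr1 from -0.12 to 0.18. The causes were not tested. Counting limits Stk39 most (8.61% in its lowest library).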
